A study of Danio rerio with 4 samples.

Results

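The comparison was between radial glia of uninjured adult zebrafish telencephalon from fish given MTZ and the same cells from fish without MTZ. A cell was kept if it had at least 300 genes detected and at most 25% of its UMIs (unique molecular identifiers, each counting 1 captured RNA molecule) from mitochondrially encoded genes. Among the kept cells, radial glia were those with fabp7a, a brain fatty acid binding protein of radial glia, at 0.5% or more of the cell's UMIs. These rules left 1254 cells of 1362 barcodes in the uninjured MTZ library and 683 cells of 741 barcodes in the uninjured library, which makes 1937 of the 4857 barcodes in the series. The gate took 93.03% of the kept cells in the uninjured MTZ library (95% interval 91.5 to 94.3) and 93.4% in the uninjured library (91.4 to 95.1). Just inside the gate, at 0.5% to 0.6% fabp7a, stood 41 cells with MTZ and 8 without, and just outside it, at 0.4% to 0.5%, stood 15 with MTZ and 8 without.

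The uninjured MTZ library came from fish with both Tg[GFAP:dTomato]nns17Tg and Tg[mpeg1:NTR-EYFP]w202, with MTZ as the treatment. The uninjured library came from fish with Tg[GFAP:dTomato]nns17Tg only and no MTZ. Fish were 3 to 7 months old in both, each library was a pool of 7 telencephalons, and cells were sorted for dTomato before 10x Genomics 3' library preparation. The injured MTZ and injured libraries, which carry the same genotypes and 3dpl in their titles, were used only as a second pair with and without MTZ. The treatment label gives a stab lesion even for the libraries titled as non-injured, so group names here follow the titles. With 1 library per group there were no replicates. MTZ, the second transgene and the pool of fish cannot be told apart, every ratio compares these libraries and not the conditions, and intervals cover counting error only.

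Radial glia line the ventricles of the adult fish brain and act as its neural stem cells, most of them held quiescent by Notch signalling. They also do much of the work of astrocytes, such as taking up glutamate and supplying metabolites. Microglia are the brain's resident macrophages. Nitroreductase (NTR) turns MTZ, metronidazole, into a toxic product, and the mpeg1 promoter places the enzyme in microglia and macrophages, so enzyme and drug together are a tool for ablating those cells.

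Microglial RNA was higher, not lower, in the uninjured MTZ library. A list of 32 microglia and macrophage genes held 1313 UMIs over the gated cells with MTZ (375 CPM, UMIs of a gene scaled to a library total of 1000000, with 1 gene at 0) and 20 UMIs without MTZ (7.35 CPM, with 21 genes at 0). These 32 genes were chosen after the data had been seen and include ccr9a, among the genes with the highest ratios here, so the contrast is not independent evidence. A broader list of 46 such genes, described below, summed to 730 CPM with MTZ and 381 CPM without. It holds all of the 32 genes but ccr9a and mhc2a, so it is not independent evidence either. mpeg1.1, a pore-forming protein of macrophages whose promoter drives the transgene, had 9 UMIs with MTZ and 0 without. At least 2 UMIs of the 32 genes were found in 90 gated cells with MTZ and in 1 without, and among all kept cells in 132 with MTZ and 3 without. The cells had been sorted for the glial reporter, so these counts do not measure how many microglia the brains held, and the libraries themselves give no check that microglia were depleted. In the injured pair the sum over the 32 genes ran the other way, with 430 UMIs (71.3 CPM) in the injured MTZ library and 558 UMIs (124 CPM) in the injured library. Most of these UMIs were of cd74a (150 with MTZ and 146 without), cd74b (144 and 265) and mhc2a (96 and 59). mpeg1.1, marco and ccr9a had 0 UMIs in both injured libraries, so this sum rests on few genes. Lower with MTZ there were also ctss2.1 (10 UMIs with MTZ and 38 without), lgals9l1 (0 and 16) and havcr1 (0 and 10), while mhc2dab (4 and 1) was higher. Every group name therefore means the library titled so. Whether libraries and titles were exchanged in the uninjured pair was not tested, and an exchange would turn the sign of each ratio. fabp7a is in every gated cell by the rule, so gfap, the glial intermediate filament, is the marker that checks the cell type. It had 495 CPM with MTZ and 563 CPM without (log2 −0.18), and a UMI of it was seen in 55.9% of gated cells with MTZ and in 74.96% without. These shares depend on depth, which differed between the libraries. With cells thinned to 1000 UMIs they were 33.8% with MTZ and 40.3% without. Thinning left out the gated cells under 1000 UMIs, 361 with MTZ and 33 without, so these shares do not check their cell type. In cells under 1500 UMIs the log2 ratio of gfap was −0.94. The unthinned share of cells with a gfap UMI was 14.0% in 57 background cells outside the gate, 44 with MTZ and 13 without. These background cells held at least 3 UMIs of the broader list of 46 genes, a different mark from 2 UMIs of the 32 genes.

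The gated cells were shallower with MTZ, with a median of 2739 UMIs and 1189 genes, against 3383 UMIs and 1408 genes without. Under 1500 UMIs lay 460 cells (36.7%) with MTZ and 116 cells (17.0%) without, and these gave 10.4% of the summed UMIs with MTZ and 4.68% without. The median mitochondrial share of those low-depth cells was 4.03% with MTZ and 2.72% without, and that of the deeper cells 1.30% with MTZ and 1.54% without. The microglia-marked cells with MTZ had a median of 930.5 UMIs, so many of them belonged to the low-depth cells. The libraries with and without MTZ shared 3 barcodes, of which 2 were gated.

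**Figure D1:**
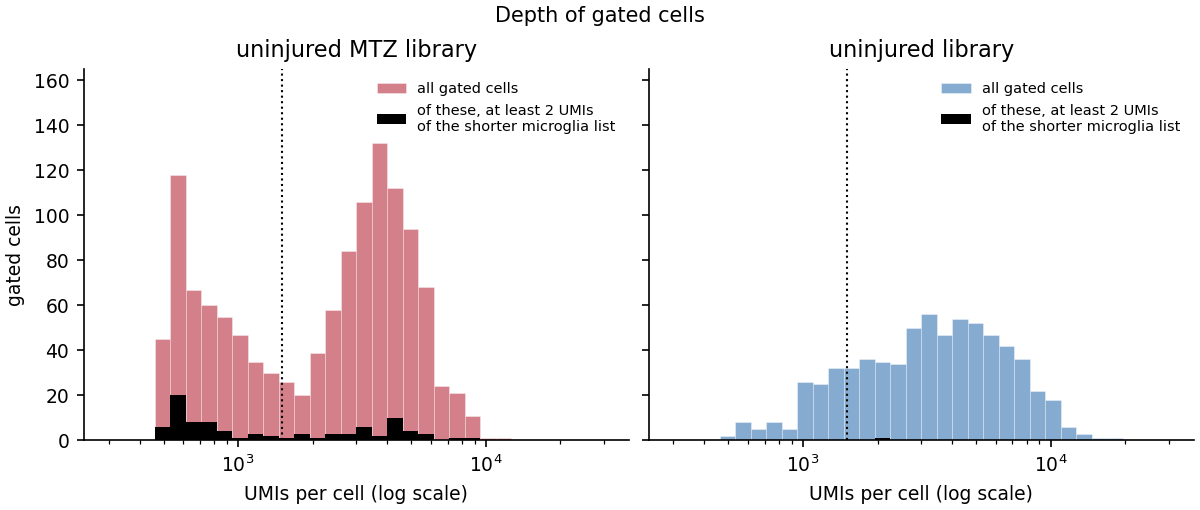
Number of gated cells (y axis) by UMIs per cell (x axis, log scale) in the uninjured MTZ library on the left and the uninjured library on the right, with cells holding at least 2 UMIs of the 32 microglia genes in black and a dotted line at 1500 UMIs. The uninjured MTZ library has a separate low-depth group, 460 cells under 1500 UMIs against 116 in the uninjured library, and 90 microglia-marked cells against 1.

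UMIs were summed per gene over the gated cells of each library, 3497647 with MTZ and 2721196 without, and compared as CPM among the 6101 genes with at least 100 UMIs over both libraries. A gene with few UMIs in 1 library reaches this minimum only through the other, so the filter fixes the direction of its ratio. A ratio of 2 or more was reached by 96 genes (1.57%), and a ratio of 0.5 or less by 175 genes (2.87%), 271 genes in all (4.44%). The log2 ratio was below 0 in 58.2% of the genes. The median log2 ratio of all these genes was −0.08, with the middle part of the distribution, from the lower to the upper quartile, between −0.36 and 0.19. With edgeR's TMM scaling, which sets that median to −0.00, the split was 119 higher and 134 lower. Genes at least 2-fold higher included thioredoxin, a metabotropic glutamate receptor and several macrophage genes. Those at least 2-fold lower included an ephrin, heat shock chaperones and transcription factors of forebrain regions, but the lowest ratios were mostly of genes outside any list.

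**Figure D2:**
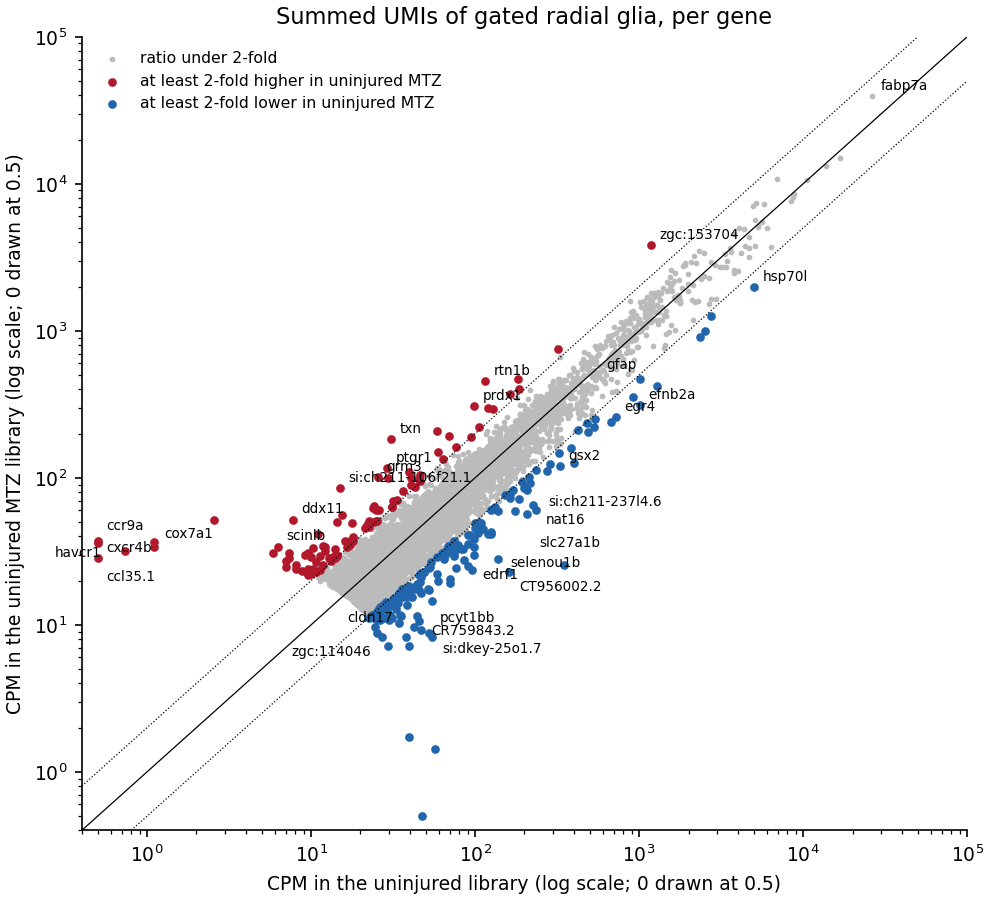
CPM of each of 6101 genes in the uninjured MTZ library (y axis, log scale) against the uninjured library (x axis, log scale), summed over gated cells; the solid line marks equal levels and the dotted lines a 2-fold difference. The 96 genes at least 2-fold higher with MTZ are red and the 175 at least 2-fold lower are blue.

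Antioxidant genes were among the higher ones. Of 37 genes for oxidative stress and xenobiotic handling that were measured well enough, 4 were at least 2-fold higher with MTZ, 1 was lower and the list's median log2 ratio was 0.19, with 23 of 37 above 0. Of all genes, 1.57% were that much higher, 2.87% lower and 41.8% above 0. The list median was −0.45 in cells under 1500 UMIs. Thioredoxin (txn, ENSDARG00000044125), which keeps protein thiols reduced, had 182 CPM with MTZ and 30.9 CPM without, a 5.91-fold difference (log2 2.56, interval 2.23 to 2.91). Peroxiredoxin 1 (prdx1, ENSDARG00000058734), a peroxide-reducing enzyme that thioredoxin recharges, had 307 CPM with MTZ and 98.5 CPM without (log2 1.64, 1.45 to 1.84). Both redox partners were thus higher in the sums over all gated cells. keap1a, the sensor that holds the antioxidant regulator Nrf2 in check, had a log2 ratio of 1.11, and glutathione reductase (gsr) one of 0.80. The gene for Nrf2 itself, nfe2l2a, stood at −0.06, and nqo1 and hmox1a, textbook Nrf2 targets, at −0.29 and −0.61. So the list did not move as a block. The lower member was cyp1b1, a cytochrome P450, with 59.5 CPM with MTZ and 175 CPM without (log2 −1.56, −1.80 to −1.32). ptgr1, an NADPH-dependent prostaglandin and alkenal reductase outside the list, had 116 CPM with MTZ and 29.0 CPM without (log2 2.0, 1.65 to 2.37).

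The thioredoxin difference was not seen at every depth. txn had a log2 ratio of −0.21 in cells under 1500 UMIs, 3.37 in cells with 1500 to under 4000 UMIs and 2.82 in cells with 4000 or more, while prdx1 stood at 1.44, 1.47 and 1.77 in the same 3 depth classes. Of the txn UMIs with MTZ, 5.02% were in the microglia-marked cells, and of the prdx1 UMIs 6.89%. Without those cells the log2 ratios were 2.57 for txn and 1.61 for prdx1. With every cell thinned to 1000 UMIs, which left 893 cells with MTZ and 650 without, a txn UMI was found in 12.5% of cells with MTZ and 2.92% without. Both shares lie below the 31.6% found in the 57 background cells outside the gate (median 902 UMIs), so the shares of txn-positive cells are not read as expression. The difference in CPM is what the data give for txn.

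Lists of energy metabolism, lysosomes and endoplasmic reticulum stress each held 1 or 2 higher members. pfkfb4b, which sets the level of the glycolytic activator fructose 2,6-bisphosphate, had 149 CPM with MTZ and 59.5 CPM without (log2 1.32, 1.07 to 1.59). bnip3la, a receptor for mitochondrial autophagy, had a log2 ratio of 1.02, while epas1b, a hypoxia-inducible factor, stood at −1.37. The 27 glycolysis and hypoxia genes therefore had 2 members higher and 1 lower, against 1.57% and 2.87% of all genes, and a median of 0.02. tfe3a, a transcription factor for lysosome genes, had 297 CPM with MTZ and 119 CPM without (log2 1.32, 1.14 to 1.5), but it was the only 1 of 25 lysosome and phagocytosis genes past the 2-fold mark, and their median was 0.04. manf, a secreted protein of the endoplasmic reticulum stress response, was the only 1 of 22 such genes past it, with 98.6 CPM with MTZ and 45.2 CPM without, and the median of its list was −0.23. For these 2 lists the share past the mark is near the 4.44% of all genes.

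Of 34 steroid, hormone and clock genes, 3 were higher and 1 was lower, against 1.57% and 2.87% of all genes. The list median was 0.07. fkbp5, a cochaperone and textbook target of the glucocorticoid receptor, had 41.5 CPM with MTZ and 11.02 CPM without (log2 1.91, 1.34 to 2.53). The clock gene per2 had 89.5 CPM with MTZ and 40.4 CPM without (log2 1.15, 0.83 to 1.47). nfil3-6, of the NFIL3 family of clock-linked repressors, had 135 CPM with MTZ and 63.6 CPM without (log2 1.09, 0.83 to 1.35). Other glucocorticoid and clock genes stayed within 2-fold: klf9 stood at 0.85, cry1a at 0.80, tsc22d3 at 0.25, per1b at −0.22 and the glucocorticoid receptor gene nr3c1 at −0.05. The 95th percentile of all genes was 0.62. The lower member was esr2b, an estrogen receptor, at −1.11.

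Several genes outside the lists also stood far above the rest. zgc:153704 (ENSDARG00000045979) had the most UMIs of the higher genes, with 3825 CPM with MTZ and 1184 CPM without (log2 1.69, 1.64 to 1.75). Thinned to 1000 UMIs, it was detected in 70.9% of cells with MTZ and 39.2% without, against 8.77% in the background cells outside the gate. Unthinned, it was detected in 69.2% with MTZ and 58.6% without. rtn1b, a reticulon of the endoplasmic reticulum common in neurons, had 452 CPM with MTZ and 115 CPM without (log2 1.97, 1.8 to 2.15), and was detected in 28.2% of thinned cells with MTZ and 10.0% without. The share in the background cells outside the gate was 14.0%, so the share without MTZ is not above that background. Of 8 measured mature neuron markers rtn1b was the only 1 past 2-fold, against 1.57% of all genes higher. The whole list of 35 summed to 931 CPM with MTZ and 588 CPM without, with 6 genes at 0 with MTZ and 5 without. The part of neuronal RNA in the rtn1b ratio was not tested.

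The gene with the largest ratio outside the macrophage genes was cox7a1, a subunit of cytochrome c oxidase, with 119 UMIs with MTZ and 3 without (log2 4.95, 3.37 to 7.25). A UMI of it was found in 8.13% of gated cells with MTZ and 0.293% without, and no single cell held more than 3.36% of its UMIs with MTZ. Of the other 81 measured genes of nuclear oxidative phosphorylation 59 had ratios above 0, against 41.8% of all genes, with a median of 0.18. The median of the list with cox7a1 was −0.49 in cells under 1500 UMIs, −0.04 at 1500 to under 4000 and 0.40 at 4000 or more. Past 2-fold were atp5mea, a subunit of ATP synthase, at 1.19 and, in the other direction, the complex I subunit ndufb11 at −1.13. ddx11, a DNA helicase, had 52.0 CPM with MTZ and 7.72 CPM without (log2 2.75). scinlb, of the actin-severing gelsolin family, had 34.02 CPM with MTZ and 6.25 CPM without (log2 2.45), and si:ch211-106f21.1 had 84.6 CPM with MTZ and 15.07 CPM without (log2 2.49). ddx11, scinlb and si:ch211-106f21.1 had 21, 17 and 41 UMIs without MTZ, so they too reached the minimum only through the uninjured MTZ library.

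Macrophage and leukocyte genes made up another set of high ratios, and most of their UMIs came from the marked cells. The chemokine receptor genes ccr9a and cxcr4b had 131 and 125 UMIs with MTZ and 0 UMIs without. Set against a floor of 3 UMIs in the uninjured library they were 33.97-fold and 32.4-fold higher, with lower interval bounds of log2 4.77 and 4.70. The chemokine ccl35.1 had 100 UMIs with MTZ and 0 without, 25.9-fold higher against the same floor (lower bound log2 4.37). havcr1, a phosphatidylserine receptor for engulfing dead cells, had 112 UMIs with MTZ and 2 without. mhc2a, a class II antigen presentation gene, had 128 UMIs with MTZ and 3 without, and the apolipoprotein gene apoc1, known from microglia, had 180 with MTZ and 7 without. Of their UMIs with MTZ, the marked gated cells held 92.4% for ccr9a, 91.2% for cxcr4b, 77.0% for ccl35.1, 85.7% for havcr1, 78.1% for mhc2a and 80.0% for apoc1, where a gene was left out of the marking of its own cells. In the injured MTZ and injured libraries, ccr9a and cxcr4b had 0 UMIs in the gated cells, and ccl35.1 had 1 with MTZ and 0 without. There havcr1 had 0 UMIs with MTZ and 10 without, and apoc1 had 9 with MTZ and 80 without, the reverse of the uninjured pair. mhc2a had 96 with MTZ and 59 without. The broader list of 46 microglia and macrophage genes summed to 730 CPM with MTZ and 381 CPM without, with 3 genes at 0 with MTZ and 24 at 0 without. Of its 8 measured members 3 were past 2-fold, namely ccl35.1, havcr1 and apoc1, all higher. These 3, like ccr9a and cxcr4b, reached the minimum of 100 UMIs only through the uninjured MTZ library, so the filter fixed their direction and the count is no separate result. Leaving the marked cells out gave 85 genes higher and 169 lower among 5994.

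Heat shock genes were lower, led by the inducible HSP70 genes. Of 30 measured chaperone and ubiquitin genes, 4 were at least 2-fold lower with MTZ and none higher, 23 were below 0, and the median was −0.33. Of all genes, 2.87% were that much lower and 58.2% were below 0. hsp70l (ENSDARG00000055723), an inducible HSP70 chaperone, had 1978 CPM with MTZ and 5049 CPM without (log2 −1.35, −1.39 to −1.31). hsp70.2 had 1004 CPM with MTZ and 2531 CPM without (log2 −1.33), and hsp70.3 had 909 CPM with MTZ and 2358 CPM without (log2 −1.37). These HSP70 copies are nearly the same in sequence, so how reads were split among them is uncertain. hspa8b, a cognate HSP70, had 111 CPM with MTZ and 274 CPM without (log2 −1.31). The rest of the list moved less: hspa8 stood at −0.74, dnajb1b, an HSP40 partner, at −0.62, hsp90aa1.2 at −0.34 and hsp90ab1 at 0.07, and the small heat shock protein cryabb was at 0.84. The sum over the whole list was 15373 CPM with MTZ and 23764 CPM without.

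The share of hsp70l-positive cells differed less than its CPM. Unthinned, hsp70l was detected in 66.7% of cells with MTZ and 70.9% without. Thinned to 1000 UMIs, it was detected in 50.2% with MTZ and 62.3% without, against 40.4% in the background cells outside the gate. With each gene counted at most once per cell, the log2 ratios were 0.30 for hsp70l, 0.03 for hsp70.3 and −0.03 for hsp70.2. The unthinned shares of the other 2 were also lower with MTZ, at 44.4% against 57.0% without for hsp70.3 and 48.4% against 64.6% for hsp70.2. In the low-depth cells hsp70.3 stood at 0.10 and hsp70l at −0.18, while at 4000 UMIs or more they stood at −1.59 and −1.38.

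Immediate early genes, which cells switch on within minutes of a stimulus, were lower in part. Of 31 measured, 3 were past 2-fold, all of them lower, against 2.87% of all genes. Below 0 were 24, against 58.2% of all genes, and the median was −0.36. egr4 had 260 CPM with MTZ and 725 CPM without (log2 −1.48, −1.59 to −1.37), and its family member egr2a had 71.2 CPM with MTZ and 184 CPM without (log2 −1.37). ier2a had 241 CPM with MTZ and 670 CPM without (log2 −1.47). egr1, dusp1 and fosb stood at −0.85, −0.78 and −0.75, whereas fosab and jun, the abundant AP-1 genes, stood at 0.02 and −0.03, and atf3 at 0.39. socs3a, a feedback inhibitor of STAT3 signalling, had 1268 CPM with MTZ and 2724 CPM without (log2 −1.10, −1.16 to −1.05), but stat3 itself stood at 0.69 and its paralog target socs3b at 0.47. The 15 STAT3 and cytokine genes had 3 members lower and none higher, against 2.87% and 1.57% of all genes. Their median was −0.03 (0.04 with TMM scaling), and the other lower members were hsp70l and sox11b.

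Notch pathway genes were mostly lower. Of 22 measured, 4 were at least 2-fold lower and none higher, against 2.87% and 1.57% of all genes. Below 0 were 19, against 58.2% of all genes, and the median was −0.38. Among the targets, her12 had 44.9 CPM with MTZ and 111 CPM without (log2 −1.31, −1.60 to −1.03), with 14.6% of its UMIs with MTZ and 24.4% without in a single cell. her4.3 had 238 CPM with MTZ and 478 CPM without (log2 −1.01, or −0.93 with TMM scaling), and hey2, a hairy-related repressor, 40.6 CPM with MTZ and 90.8 CPM without (log2 −1.16). The near-identical her4 copies did not go one way, with her4.1 at 0.26, her4.2 at −0.55 and her4.4 at −0.04, and the split of reads among them is uncertain. Among the receptors, notch2 had 34.02 CPM with MTZ and 73.5 CPM without (log2 −1.11), but 2.70 in the low-depth cells. notch1a, notch1b and notch3, the receptor tied to radial glia quiescence in this tissue, stood at −0.27, −0.24 and 0.23, and the ligand dla at −0.32.

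Some genes of neuronal commitment were lower. Of 7 measured neurogenesis genes, 3 were past 2-fold, all of them lower, against 2.87% of all genes. The median was −0.83, and stmn1b and elavl4, genes of young neurons, stood at −0.22 and 0.24. The SoxC factors sox4a and sox11b, which drive neuronal gene expression, had 28.9 and 11.4 CPM with MTZ and 58.4 and 26.5 CPM without (log2 −1.02, or −0.94 with TMM scaling, and −1.21). With every cell thinned to 1000 UMIs their log2 ratios were only −0.36 and −0.35. Thinned cells positive for sox4a were 2.58% with MTZ and 2.92% without, below the 5.26% in the background cells outside the gate. For sox11b they were 1.57% and 2.0%, below 3.51%. tubb5, a tubulin, had 10.9 CPM with MTZ and 29.8 CPM without (log2 −1.45, thinned −1.74), with 38 and 81 UMIs behind these values and 23.7% and 16.05% of them in a single cell. ascl1a, the proneural factor that marks activated radial glia, stood at −0.83. The 10 measured immature neuron markers had 4 lower members and none higher, against 2.87% and 1.57% of all genes, and a median of −0.55. The whole list summed to 1148 CPM with MTZ, with 2 genes at 0, and 1374 CPM without, with 0 genes at 0. The part of immature neurons in these ratios was not tested. Proliferation genes did not follow: none of 11 was past 2-fold, and their median was 0.05, with hmgb2b, a chromatin protein of cycling cells, at 287 CPM with MTZ and 265 CPM without.

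Transcription factors that mark forebrain regions gave 3 lower and no higher members among 23, against 2.87% lower and 1.57% higher of all genes. Their median was −0.39. gsx2, a patterning factor of the subpallium, had 121 CPM with MTZ and 330 CPM without (log2 −1.45, −1.62 to −1.28). It was detected in 8.73% of thinned cells with MTZ and 18.2% without, against 5.26% in the background cells outside the gate. zic1 had 27.4 CPM with MTZ and 86.0 CPM without (log2 −1.65, −2.01 to −1.30). lhx2b, a LIM-homeodomain factor of the forebrain, had 77.8 CPM with MTZ and 163 CPM without (log2 −1.07, or −0.99 with TMM scaling). Other regional genes stayed within 2-fold: emx3, a pallial factor, stood at −0.83, foxg1a at −0.42, emx2 at 0.04 and nr2f2 at 0.23. The 5th percentile of all genes was −0.83.

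Signalling and guidance genes leaned the same way with few members past the mark. efnb2a (ENSDARG00000020164), an ephrin ligand on the cell surface, had 312 CPM with MTZ and 1013 CPM without (log2 −1.70, −1.80 to −1.60). It stood at 0.43 in the low-depth cells, −1.26 at 1500 to under 4000 UMIs and −2.39 at 4000 or more. Of the 23 beta-catenin pathway genes 22 were below 0, against 58.2% of all genes, with a median of −0.31. The receptor gene fzd7a was the 1 member past 2-fold, a share near the 2.87% of all genes that were lower, with 30.9 CPM with MTZ and 74.6 CPM without (log2 −1.27). axin2, the standard readout of the pathway, stood at −0.77 and ctnnb1, beta-catenin itself, at −0.22. Of the 21 BMP and TGF-beta genes, nog3, a secreted BMP antagonist, was the 1 member past 2-fold, again near that share of all genes (48.9 CPM with MTZ and 108 CPM without, log2 −1.14). id1, the BMP target linked to radial glia quiescence, stood at −0.26, id3 at −0.94 and id4 at 0.48.

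Genes for the astrocyte-like duties of radial glia changed in different directions. grm3 (ENSDARG00000031712), a metabotropic glutamate receptor, had 101 CPM with MTZ and 25.7 CPM without (log2 1.97, 1.60 to 2.36). It was detected in 9.97% of thinned cells with MTZ and 2.62% without, and in 0 of the 57 background cells outside the gate. That 0 allows a share of up to 5.26%, so the share without MTZ is not above that limit. Unthinned, its shares were 21.4% with MTZ and 8.49% without. By contrast slc1a3a, a glial glutamate transporter, had 123 CPM with MTZ and 288 CPM without (log2 −1.22, −1.40 to −1.05), while its paralog slc1a3b stood at 0.86 and the main transporter slc1a2b at −0.07. The glutamine transporter slc38a3b had 13.7 CPM with MTZ and 38.59 CPM without (log2 −1.49), and the glutamine synthetases glulb and glula stood at −0.89 and −0.16. The 15 glutamate and potassium genes thus had 1 higher and 2 lower members, against 1.57% and 2.87% of all genes. Their median was −0.27 (0.99 in cells under 1500 UMIs). Of 20 measured solute carriers, a list that shares members such as slc6a9 and slc38a3a with the glutamate list, the citrate transporter slc13a5a was past 2-fold (212 CPM with MTZ and 424 CPM without, log2 −1.0, or −0.93 with TMM scaling), with a list median of −0.36. Of 28 radial glia identity genes slc1a3a was the only 1 past it, and the median was −0.18. Such single lower members, here and among the solute carriers, are near the 2.87% of all genes that were lower.

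The genes with the lowest upper bounds were mostly outside any list. pcyt1bb, of phosphatidylcholine synthesis, had 8.86 CPM with MTZ and 52.6 CPM without (log2 −2.57). edrf1 had 23.4 CPM with MTZ and 95.5 CPM without (log2 −2.03), and slc27a1b, a fatty acid transporter, 56.9 CPM with MTZ and 208 CPM without (log2 −1.87). The selenoprotein U family gene selenou1b stood at −2.29, the claudin cldn17 at −2.12 and the acetyltransferase family gene nat16 at −1.79. CT956002.2, si:dkey-25o1.7, CR759843.2, zgc:114046 and si:ch211-237l4.6 stood between −2.82 and −1.96. A few genes had larger ratios but a large share of their UMIs in 1 cell. cort, the neuropeptide cortistatin, had 0 UMIs with MTZ and 129 without, of which 69 lay outside the cell that held most. rdh5, a retinol dehydrogenase, had 5 with MTZ and 154 without, and 1 with MTZ and 88 without outside that cell. asip2b, an agouti-related antagonist of melanocortin receptors, had 25.4 CPM with MTZ and 347 CPM without (log2 −3.77), and 46 UMIs with MTZ and 689 without outside the cell that held most. In the injured pair asip2b stood at −1.65.

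**Figure D3:**
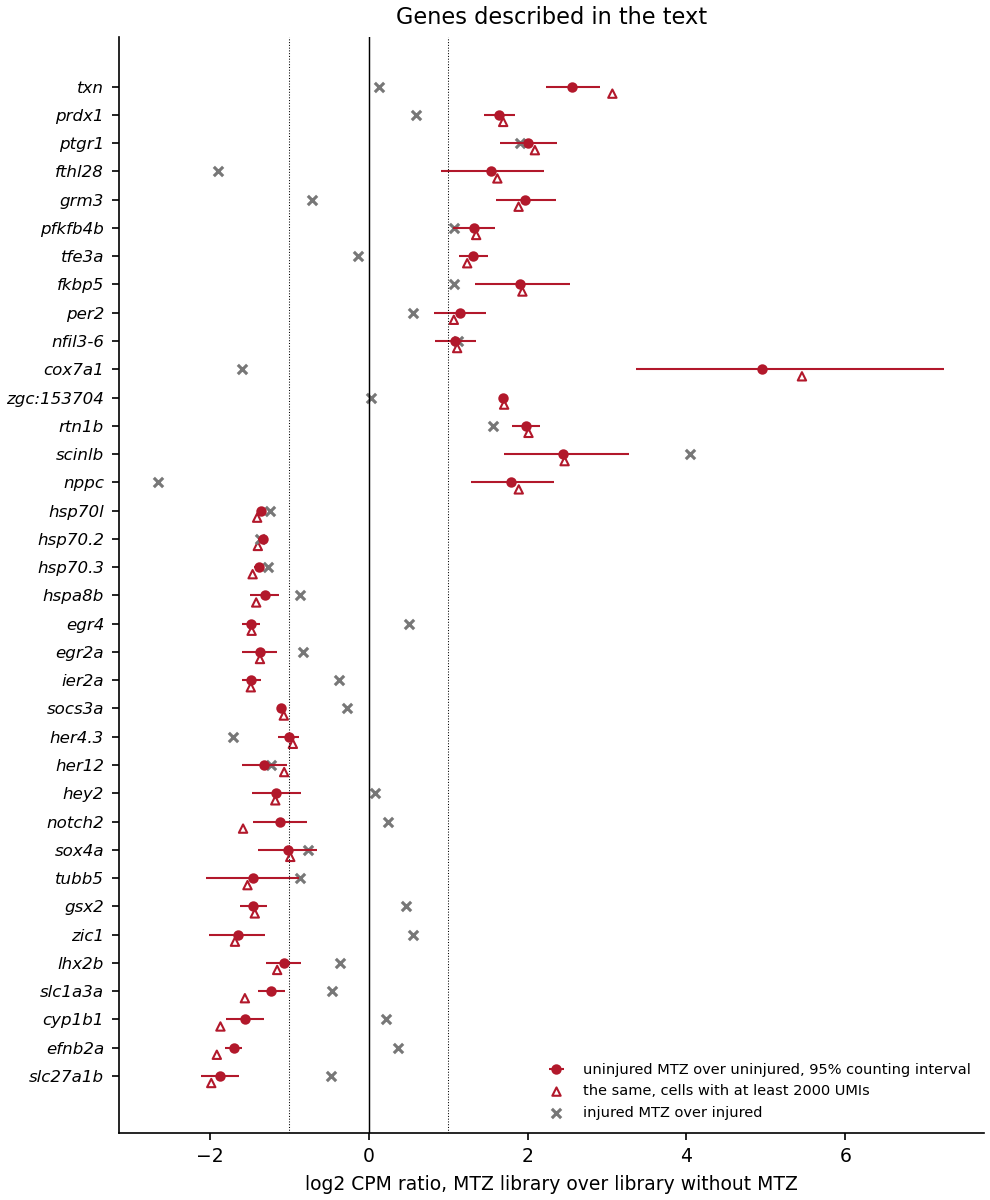
Log2 CPM ratio (x axis) of genes described in the text: filled circles give uninjured MTZ over uninjured with the 95% counting interval, triangles the same in cells with at least 2000 UMIs, and crosses injured MTZ over injured; dotted lines mark 2-fold. hsp70l, rtn1b and ptgr1 have crosses close to their circles, whereas nppc, at 1.8 in the uninjured pair, is at −2.65 in the injured pair.

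Immune response genes showed few differences in the gated cells. None of 8 interferon response genes was past 2-fold and their median was −0.08 (−0.00 with TMM scaling). stat1a, the interferon signal transducer, had 183 CPM with MTZ and 198 CPM without, and the chemokine cxcl18b 420 CPM with MTZ and 287 CPM without (log2 0.55, 0.43 to 0.68). None of 9 TNF and NF-kB genes was past it either, with a median of 0.05. Past 2-fold among 9 antigen presentation genes were mhc2a, which reached the minimum of 100 UMIs only through the MTZ library, and the class I gene mhc1uka. Both were higher, against 1.57% of all genes. Of the mhc2a UMIs with MTZ, 78.1% were in the microglia-marked cells. mhc1uka had 35.2 CPM with MTZ and 17.3 CPM without (log2 1.03, 0.53 to 1.54). Both tissue factor genes, f3a and f3b, which start coagulation, stood at 0.57. Among 16 reactive glia genes the median was 0.33 (−0.90 in cells under 1500 UMIs). Past 2-fold were txn at 2.56 and the natriuretic peptide gene nppc at 1.8, both higher, and the actin-binding tagln2 at −1.30 (42.0 CPM with MTZ and 104 CPM without). Of all genes, 1.57% were that much higher and 2.87% lower. For nppc, 1 cell held 31.0% of the UMIs with MTZ and 41.0% without. anxa2a stood at 0.80 and vim at 0.18.

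Genes of basic cell functions shifted little. None of 82 cytosolic ribosomal protein genes was past 2-fold, but 67 were above 0, against 41.8% of all genes. The median was 0.30, with rplp1 at 3508 CPM with MTZ and 2310 CPM without (log2 0.60). The 13 mitochondrially encoded genes had a median of −0.21, with 11 of them below 0, against 58.2% of all genes. The 26 cholesterol synthesis genes had none past 2-fold and a median of −0.04 (0.04 with TMM scaling), and the 36 proteasome genes none and −0.05 (0.03 with TMM scaling). Of 21 p53 and DNA damage genes only plk2b was past it (47.2 CPM with MTZ and 106 CPM without, log2 −1.17), against 2.87% of all genes lower. The list median was −0.02 (0.06 with TMM scaling), and cdkn1a, the main p53 target, stood at 0.75.

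**Figure D4:**
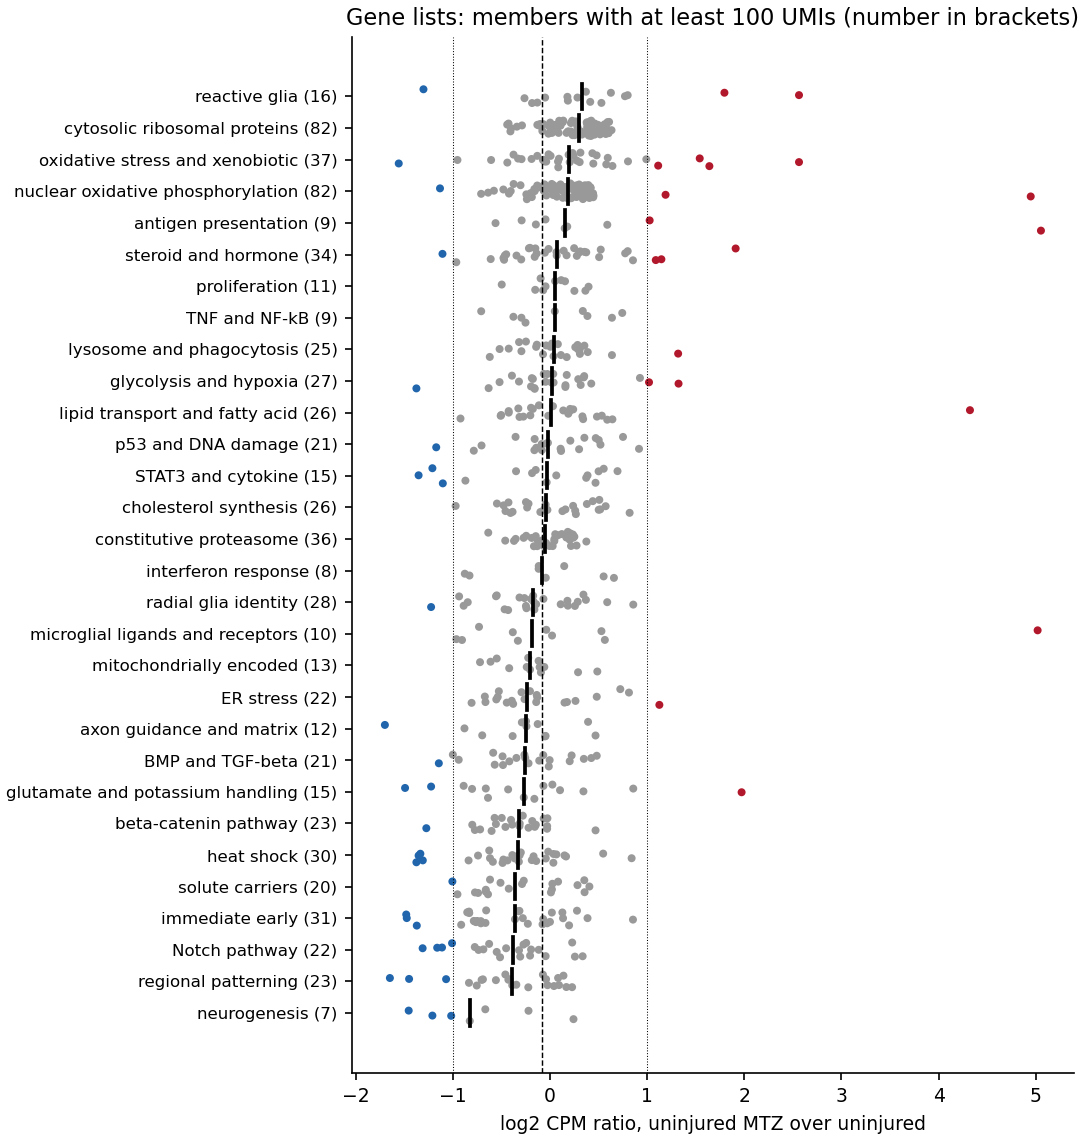
Log2 CPM ratio, uninjured MTZ over uninjured (x axis), of each measured gene in the lists with at least 7 measured genes (y axis, ordered by median, number of genes in brackets; lists of other cell types not drawn); black bars are list medians, the dashed line is the median of all genes at −0.08 and dotted lines mark 2-fold. Neurogenesis, regional patterning and the Notch pathway have the lowest medians, at −0.83, −0.39 and −0.38, and reactive glia and ribosomal proteins the highest, at 0.33 and 0.30.

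Within single cells the list shares overlapped widely between the libraries. In cells with at least 1000 UMIs, heat shock genes took a median of 1.04% of UMIs with MTZ (quartiles 0.748 to 1.7) and 1.47% without (0.860 to 2.92). Oxidative stress genes took 1.90% with MTZ (1.33 to 2.55) and 1.39% without (0.875 to 2.11), and ribosomal protein genes 9.16% with MTZ (6.75 to 13.3) and 7.17% without (4.42 to 12.1). Regional patterning genes took 0.214% with MTZ and 0.280% without, the Notch pathway 1.05% with MTZ and 1.11% without, and immediate early genes 4.35% with MTZ and 4.64% without. The difference in heat shock share was widest among the cells highest in it, where the 95th percentile was 4.17% with MTZ and 6.22% without.

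**Figure D5:**
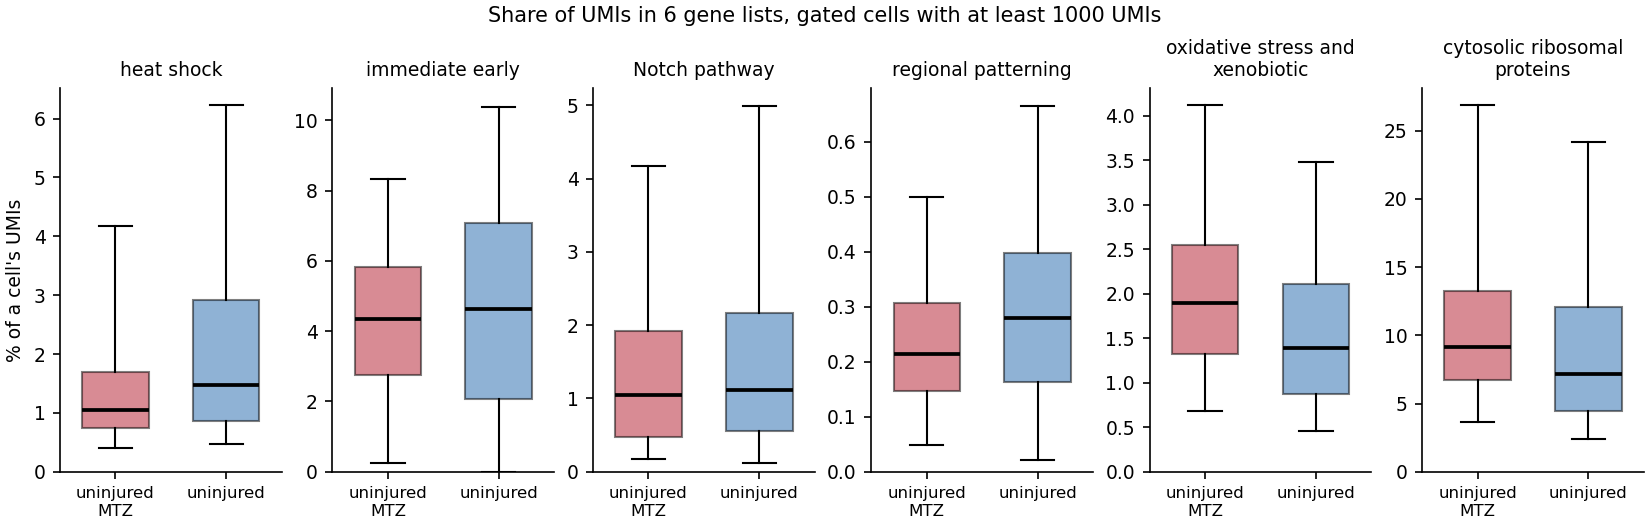
Percent of a cell's UMIs (y axis) in 6 gene lists for gated cells with at least 1000 UMIs, 893 in the uninjured MTZ library and 650 in the uninjured library; the line is the median, boxes span the quartiles and whiskers the 5th to 95th percentile. The boxes overlap in all 6 lists, with lower medians with MTZ for heat shock (1.04% with MTZ against 1.47% without) and higher ones for oxidative stress (1.90% with MTZ against 1.39% without).

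The differences were not the same in every depth class. In cells with at least 2000 UMIs, 748 with MTZ and 500 without, 77 genes were at least 2-fold higher and 228 lower among 5716. In cells with 1500 to under 4000 UMIs, 65 genes were at least 2-fold higher and 79 lower among 2720, and in cells with 4000 or more, 62 were higher and 221 lower among 4369. In cells under 1500 UMIs, 160 were higher and 80 lower among 731. Of the 96 genes higher in all gated cells, 36 were measured at 1500 to under 4000 UMIs, of which 27 kept a 2-fold difference, and 15 in the low-depth cells, of which 14 kept it. Of the 175 lower genes, 68 were measured at 1500 to under 4000 UMIs, of which 49 kept it, and 20 in the low-depth cells, of which 5 kept it. The low-depth cells were 460 with MTZ and 116 without, so genes reached the minimum of UMIs there mainly through the MTZ library. That filter favours higher genes, so the 14 of 15 is no separate result. In the low-depth cells 18 of 28 list medians, those of other cell types left out, had a sign opposite to that over all gated cells, against 10 of 31 at 1500 to under 4000 UMIs and 5 of 31 at 4000 or more. In the low-depth cells these included solute carriers at 1.28, the beta-catenin pathway at 1.07, glutamate and potassium handling at 0.99, endoplasmic reticulum stress at 0.67, heat shock at 0.10, oxidative stress at −0.45, ribosomal proteins at −0.57 and reactive glia at −0.90. The Notch median was −0.77 in the low-depth cells, −0.62 at 1500 to under 4000 UMIs and −0.43 at 4000 or more. The part of low-depth cells in the ratios over all cells was not tested further than this.

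The injured pair shares no library with the uninjured pair, and gave 101 higher (1.3%) and 184 lower genes (2.38%) of 7746, together 3.68%, by the same rules. Of 6036 genes measured in both pairs, 84 were at least 2-fold higher with MTZ in the uninjured pair and 63 in the injured pair. In both stood 17 genes, which is 20.2% of the first set and 27.0% of the second. For lower genes the numbers were 172 in the uninjured pair, 71 in the injured pair and 22 in both (12.8% and 31.0%). Of the 84 higher genes 67.9% had a ratio above 0 in the injured pair, against 59.5% of all genes, and of the 172 lower genes 68.6% had one below 0, against 40.5% of all genes. Both MTZ libraries came from fish with the second transgene, so here too strain and treatment cannot be told apart.

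Among the genes higher with MTZ in both pairs were ptgr1 (log2 2.0 uninjured and 1.91 injured), rtn1b (1.97 and 1.57), scinlb (2.45 and 4.05), fkbp5 (1.91 and 1.08), pfkfb4b (1.32 and 1.07), nfil3-6 (1.09 and 1.12) and phb2a, a mitochondrial prohibitin (1.68 and 1.35). Among those lower in both were hsp70l (−1.35 and −1.24), hsp70.2 (−1.33 and −1.36), hsp70.3 (−1.37 and −1.27), her4.3 (−1.01 and −1.71), her12 (−1.31 and −1.23), tuba1a (−1.20 and −1.26) and plk2b (−1.17 and −1.72). Genes for retinoid metabolism also appear there, with rpe65a, a retinoid isomerase, at −2.47 and −2.20 and cyp27c1, a vitamin A desaturase, at −1.51 and −1.82. Other large ratios of the uninjured pair had no counterpart: txn stood at 2.56 uninjured and 0.13 injured, zgc:153704 at 1.69 and 0.03, grm3 at 1.97 and −0.71, tfe3a at 1.32 and −0.14, efnb2a at −1.70 and 0.37, gsx2 at −1.45 and 0.48, zic1 at −1.65 and 0.56, and egr4 at −1.48 and 0.51. With 1 library per group the difference between the pairs was not tested. Of the genes past 2-fold in both pairs, fthl28, nppc and fgf8b went in opposite directions.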

How the data were processed

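Single cells sorted for GFAP:dTomato were profiled in 4 libraries, 1 per group. The deposited files hold raw UMI counts per gene and barcode, already restricted to called cells. Cell Ranger 3.1.0 and GRCz11 are named per the submitters' processing notes, while the matrix headers name cellranger 4.0.0. The annotation release is not given in the sources used here. Features sharing a symbol (518 symbols) were summed, giving 24435 symbols.

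Cells were filtered and gated as stated in the report, UMIs were summed per gene and library, and CPM ratios were taken for genes with at least 100 UMIs over both libraries. Ratios have exact conditional binomial 95% intervals, CPM exact Poisson and shares Clopper-Pearson intervals. No p-value was computed, because each group is 1 library. Sums of gated UMIs, 3497647 with MTZ and 2721196 without, set the precision. Doublets were kept, and leaving out the 14 and 4 gated cells with the highest Scrublet scores (scanpy 1.11.5) was an alternative. Scale factors came from edgeR 4.0.16 and DESeq2 1.42.0. The code was tested on simulated data.

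Named genes were the 12 with the highest lower bound and the 12 with the lowest upper bound of the ratio (a UMI in at least 20 cells, no cell with over 10% of the UMIs), up to 4 per list past 2-fold or else the 2 with most UMIs, and fabp7a and gfap. Other genes named were chosen after their values were seen, from the lists, from the genes past 2-fold in both pairs, or for a large share of UMIs in 1 cell. The gate, the gene lists and the shorter microglia list were chosen with earlier results of these data known. Of 24 alternatives, 20 were planned and 4 (the shorter microglia list and 3 depth classes) were chosen after seeing the data. Gene sequences and genome coordinates were not used here.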

Additional observations from a re-analysis of the deposited data

Results flagged for a closer look

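Among the genes named by rule, nppc and fthl28 were at least 2-fold higher with MTZ in the uninjured pair and at least 2-fold lower with MTZ in the injured pair. nppc, the C-type natriuretic peptide, had a log2 ratio of 1.8 in the uninjured pair (49.7 CPM with MTZ and 14.3 CPM without) and −2.65 in the injured pair (84.7 CPM with MTZ and 532 CPM without). In the uninjured pair 1 cell held 31.0% of its UMIs with MTZ and 41.0% without. fthl28, of the ferritin heavy chain family whose near-identical copies make the split of reads uncertain, had a log2 ratio of 1.54 in the uninjured pair (28.9 CPM with MTZ and 9.92 CPM without) and −1.90 in the injured pair (10.9 CPM with MTZ and 40.9 CPM without). fgf8b, which that rule did not name, was past 2-fold in both pairs the other way, at −1.29 in the uninjured pair and 1.13 in the injured pair. These differences between pairs were not tested, since each group is 1 library.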

How the results depend on the processing

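No paired analysis was possible because each group is 1 library, and for the same reason no replicate could be left out. The counts of genes past 2-fold depended most on the minimum of UMIs per gene: 200 higher and 328 lower at 50 UMIs, 48 and 99 at 200, and 1269 and 1753 with no minimum, with 27, 10 and 170 higher in both pairs and 49 and 418 lower in both pairs at 50 and at none. Thinning gave 35 and 51 (8 and 8 in both pairs), counting each gene once per cell 46 and 70 (6 and 5), and leaving out cells with 2 proliferation genes 62 and 65 (6 and 8). Mean per-cell CPM gave 252 higher (26 in both pairs), and no gate 44 higher in both pairs. Leaving out cells with 2 UMIs of the broader microglia list, with apoc1, hexb and plxnb2a taken out of it, gave 104 lower. By depth, cells under 1500 UMIs gave 160 and 80 (4 and 2 in both pairs), those with 1500 to under 4000 gave 79 lower (8 higher in both pairs) and those with at least 4000 gave 62 higher (11 in both pairs). Fewer genes reach the minimum under the alternatives that drop UMIs or cells, and beyond that the cause was not tested. The gated share was 97.9% with MTZ at 800 genes and 10% mitochondrial UMIs, 97.1% with MTZ and 96.0% without at 0.25% fabp7a, 82.9% and 84.7% at 1%, and 52.0% and 70.0% when a gfap UMI was required. Signs turned with each gene counted once per cell for hsp70l (0.30), socs3a (0.12) and hsp70.3 (0.030). Even so, the unthinned shares of positive cells were lower with MTZ: 66.7% against 70.9% without for hsp70l, 55.6% against 67.1% for socs3a and 44.4% against 57.0% for hsp70.3. Of the genes named by rule and past 2-fold, signs turned in cells under 1500 UMIs for txn (−0.21), efnb2a (0.43), slc1a3a (0.13), notch2 (2.70), egr4 (0.49), hsp70.3 (0.10), cyp1b1 (0.23), plk2b (0.49), nog3 (0.20), fzd7a (1.74) and slc13a5a (0.37). These values rest on few UMIs and on 460 cells with MTZ and 116 without. Genes within 2-fold turned too, some of them abundant. Among these were the gate gene fabp7a (0.59 over all gated cells, −0.42 there), rplp1 (0.60 and −0.46) and stat1a (−0.12 and 1.47). The cause of the turned signs was not tested. Sparse counts leave shares of positive cells for low genes near that of 1 UMI.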

Other observations

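Some abundant genes outside the lists also differed at least 2-fold between the gated cells of the uninjured MTZ and uninjured libraries, and are named here after their values were seen because they held many UMIs. Among the higher ones, gpr37l1b, an orphan receptor of glia, had 746 CPM with MTZ and 321 CPM without (log2 1.22, interval 1.11 to 1.33). It was detected in 44.7% of cells thinned to 1000 UMIs with MTZ and 25.4% without, against 10.5% in the background cells outside the gate. ntrk2a, a BDNF receptor, had 401 CPM with MTZ and 184 CPM without (log2 1.12). crema, a cyclic AMP-responsive transcription factor, had 470 CPM with MTZ and 184 CPM without (log2 1.35), and hbegfa, a ligand of the EGF receptor, 370 CPM with MTZ and 163 CPM without (log2 1.18). In the injured pair these 4 genes stood at 0.06, −0.29, 0.19 and 0.28.

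Among the lower ones, hsd17b3, a steroid dehydrogenase that makes testosterone in mammals, had 423 CPM with MTZ and 1294 CPM without (log2 −1.61, −1.70 to −1.53). It was detected in 25.4% of thinned cells with MTZ and 51.4% without, against 8.77% in the background cells outside the gate. ndnf, a secreted neurotrophic factor, had 222 CPM with MTZ and 531 CPM without (log2 −1.26), and sp8a, a zinc finger transcription factor of the forebrain, 250 CPM with MTZ and 537 CPM without (log2 −1.10). gmnn, geminin, which blocks relicensing of DNA replication, had 127 CPM with MTZ and 398 CPM without (log2 −1.65), although none of the 11 measured proliferation genes was past 2-fold. In the injured pair hsd17b3 stood at −0.96, ndnf at 0.20, sp8a at −0.18 and gmnn at −0.40. With 1 library per group none of these differences was tested.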
